A study of Mus musculus with 12 samples.

Results

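Dot1l and the partner proteins of its complex were followed through total and polysomal RNA of mouse round spermatids. The 5 genes were listed by name as the methyltransferase and its partners, with earlier results of these data known: Dot1l, Mllt1, Mllt3, Mllt6 and Mllt10. Of these, 4 had a row among the 28643 gene symbols used, and Mllt6 was not analysed here. Cells came from 8-week-old male mice in 2 groups. Igf2bp3+/- heterozygotes were the control, in place of wild-type animals, and Igf2bp3-/- homozygotes were the knockout, a Cas9 frameshift made in C57BL/6 zygotes. By the study's methods, fertility varied among knockout males and those with impaired fertility were taken. In both groups spermatids were sorted by flow cytometry under cycloheximide, which halts translating ribosomes. RNA-seq measured RNA of the extract before the gradient, called total RNA here. RNC-seq, for ribosome nascent-chain complexes, measured RNA from the gradient fraction with 4 or more ribosomes. By the study's methods, RNA was selected for poly(A) tails before the libraries were made, so neither assay read unselected RNA. Each combination of genotype and assay had 3 libraries, 12 in all. Values are FPKM, a read density per transcript length and library size, so levels can be compared between genes. The RNC-seq to RNA-seq ratio is called translation efficiency (TE).

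DOT1L is the methyltransferase of lysine 79 of histone H3, a residue in the globular core of the nucleosome. MLLT1 (ENL) and MLLT3 (AF9) read acylated histones through a YEATS domain and bind DOT1L through a shared C-terminal region. MLLT6 (AF17) and MLLT10 (AF10) carry PHD fingers and bind DOT1L through a leucine zipper region. In elongating spermatids, most histones are replaced by transition proteins and then protamines, and H3K79 methylation has been described before that replacement. IGF2BP3 is an RNA-binding protein known as a reader of N6-methyladenosine (m6A) in mRNA, and GGAC is one form of the sequence in which m6A is laid down.

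In the GRCm38 build with GENCODE M21 annotation, Dot1l lay at chr10:80755206-80795461 on the plus strand, with 7 annotated transcripts. Mllt1 lay at chr17:56892611-56935415 and Mllt3 at chr4:87769925-88033364, both on the minus strand. Mllt10 lay at chr2:18055237-18212388 on the plus strand, and 12.7% of its exonic bases were shared with Dnajc1 on the opposite strand. The kit kept strand, but whether the counting used it is not given in the sources used here. None of the 4 genes had a near-identical copy in the annotated transcripts.

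The study designed a reporter from a fragment of Dot1l, and its intact and mutated forms differed by 10 A-to-T substitutions over its first 399 bases, the stretch compared here. All of these lay in the 3′ UTR of the transcript ENSMUST00000105336.8, and 6 of them fell within the 6 GGAC of that stretch. The change A399T lay on the last base compared, after GG, so whether it falls in a further GGAC was not determined. GGAC was searched on the transcript strand only, and no match overlapped another. For scale, 71% of the last 399 bases of 56258 protein-coding transcripts held at least 1 GGAC, with a median of 1. Each isoform was counted, and such an end need not be 3′ UTR. The study describes its fragment as an m6A-enriched region, so the fragment and these ends are not like stretches. The stretches below show 3 of the 6 sites, spread along it, since these are the bases that the study changed. Capitals mark GGAC, the letters run 5′ to 3′ on the plus strand, and positions count from 1 at the 5′ end of the fragment.
A10T, chr10:80793507-80793528: gtaattaGGACttctactacct
A87T, chr10:80793581-80793605: cggcggagccGGACatggagccact
A312T, chr10:80793806-80793830: ctggccacaaGGACtcctgactccg
The presence of these letters is a description of the design, and no binding or m6A was measured in the libraries described here.

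The libraries were checked before the members were compared. All 6 round spermatid markers were detected, with summed levels of 811 to 917 FPKM in Igf2bp3+/- RNA-seq and 935 to 1072 FPKM in Igf2bp3-/- RNA-seq. Elongating spermatid markers, 6 genes, summed to 8130 to 10504 FPKM in Igf2bp3+/- RNA-seq and 9137 to 9298 FPKM in Igf2bp3-/- RNA-seq. For 6 spermatocyte markers the sums were 122 to 161 FPKM and 147 to 177 FPKM in the same order. Summed levels of 6 Leydig cell markers were 14.6 to 21.5 FPKM against 46.3 to 52.8 FPKM in RNA-seq, and 6.16 to 13.9 FPKM against 50.4 to 100 FPKM in RNC-seq. The summed peritubular markers and the macrophage and blood markers were also higher in every Igf2bp3-/- library than in any Igf2bp3+/- library of the same assay. Single peritubular markers were mixed in RNA-seq, where 4 of 6 had a higher mean log2 level in Igf2bp3-/-. At an unadjusted p under 0.05 by limma, 3 were higher and 1 was lower. No marker on these 3 lists was at 0 in every library, and their part in the results below was not tested. The transcript CT010467.1, annotated as ribosomal RNA, held 15.9% to 19.4% of summed FPKM in Igf2bp3+/- RNC-seq and 8.14% to 14.6% in Igf2bp3-/- RNC-seq. With that transcript removed and library sums made equal, the log2 change of Dot1l went from -0.28 to -0.40 in RNA-seq, from 0.58 to 0.46 in RNC-seq and from 0.86 to 0.87 in TE. Igf2bp3 mRNA stood at 33.4 to 38.6 FPKM in Igf2bp3+/- RNA-seq and 31.4 to 32.5 FPKM in Igf2bp3-/- RNA-seq. A frameshift need not remove the transcript, so this level does not check the genotype labels.

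Dot1l mRNA was abundant and the 4 genes kept 1 order. Levels descended from Dot1l through Mllt10 and Mllt1 to Mllt3 in each of the 4 groups. In Igf2bp3+/- RNA-seq the means were 37.8 ± 3.48 FPKM for Dot1l, 16.3 ± 1.45 for Mllt10, 8.01 ± 0.384 for Mllt1 and 1.78 ± 0.489 for Mllt3 (SD, n = 3). Dot1l thus stood above 88.8% of the 20494 genes with a mean over 0.1 FPKM in that group, and Mllt3 above 48.9%. Neighbours in the order did not overlap in any group, except Mllt10 and Mllt1 in Igf2bp3-/- RNC-seq, where the lowest Mllt10 library lay below the highest Mllt1 library.

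**Figure D1:**
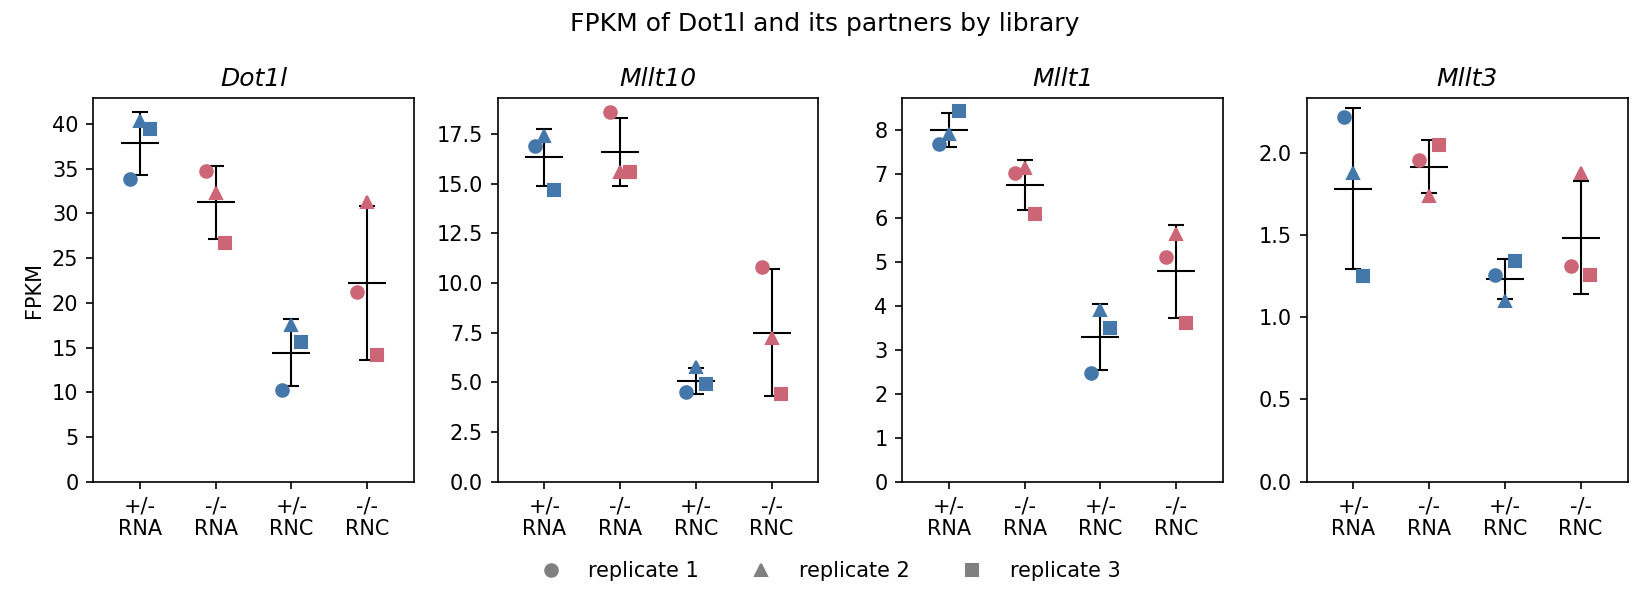
FPKM of Dot1l, Mllt10, Mllt1 and Mllt3 in the 12 libraries. Columns are Igf2bp3+/- (blue) and Igf2bp3-/- (red) in RNA-seq (RNA) and RNC-seq (RNC), marker shapes give the replicate number, and black bars give mean ± SD (n = 3). In RNC-seq the Igf2bp3-/- means lay above the Igf2bp3+/- means for each gene, with wider spread, while in RNA-seq Dot1l and Mllt1 lay lower.

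Whether the loss of Igf2bp3 changed the amount of these mRNAs was asked first in total RNA. None of the 4 members passed the adjusted limit of 0.05, where 0.256% of 20352 genes tested passed in either direction. In the Igf2bp3+/- libraries, Dot1l read 33.8, 40.3 and 39.4 FPKM in replicates 1, 2 and 3. In the Igf2bp3-/- libraries it read 34.7, 32.3 and 26.7 FPKM. A single Igf2bp3-/- library reached above the lowest Igf2bp3+/- library, and the other two lay below all 3 controls. The log2 change of Dot1l was -0.28 ± 0.12 (SE), with an unadjusted p of 0.05 that was below the limit only before rounding and an adjusted p of 0.319 by limma. Without Igf2bp3-/- replicate 3 the change was -0.17. At an unadjusted p under 0.05, Dot1l was the 1 member lower and 0 were higher, against 5.32% of all genes lower and 10.4% higher. In a bulk sample, fewer cells of a type and less RNA per cell cannot be told apart.

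Mllt1, the ENL reader, also had a lower mean in the knockout. It read 7.68, 7.91 and 8.43 FPKM in Igf2bp3+/- RNA-seq and 7.02, 7.14 and 6.10 FPKM in Igf2bp3-/- RNA-seq. The 2 groups did not overlap, with every knockout library lower, a separation that 8.68% of all genes tested also showed in that direction. Its log2 change was -0.25 ± 0.11 (SE), with an adjusted p of 0.341 by limma.

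Mllt3, the AF9 reader, and Mllt10, the AF10 zipper partner, showed no such separation. Mllt3 read 2.22, 1.88 and 1.25 FPKM in Igf2bp3+/- and 1.96, 1.74 and 2.05 FPKM in Igf2bp3-/- RNA-seq. The controls enclosed the knockout libraries, and the log2 change was 0.13 with a 95% interval of -0.36 to 0.62. Mllt10 read 16.9, 17.4 and 14.7 FPKM in Igf2bp3+/- and 18.6, 15.6 and 15.6 FPKM in Igf2bp3-/- RNA-seq. These groups overlapped as well, and the log2 change was 0.023 with an interval of -0.24 to 0.29. The sign for Mllt10 turned negative under quantile normalization (-0.049), equal sums without CT010467.1 (-0.099) and library weights (-0.025).

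On polysomes, the sign was the opposite for Dot1l and Mllt1. All 4 members had a higher mean in Igf2bp3-/- than in Igf2bp3+/- RNC-seq, but none passed the adjusted limit, which 0.115% of 19051 genes passed. None reached an unadjusted p under 0.05 by limma, against 5.36% of all genes higher and 1.12% lower. The median change of all genes was 0.13 on the log2 scale, and the values of the members stand beside that shift.

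Dot1l read 10.2, 17.5 and 15.6 FPKM in Igf2bp3+/- RNC-seq. In Igf2bp3-/- RNC-seq it read 21.2, 31.3 and 14.2 FPKM. Knockout replicates 1 and 2 lay above every control, and replicate 3 lay within the control range. The log2 change was 0.58 ± 0.30 (SE), with an interval of -0.082 to 1.25 and an adjusted p of 0.789 by limma. It was 0.30 without knockout replicate 2 and 0.87 without knockout replicate 3.

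Mllt1 read 2.46, 3.90 and 3.50 FPKM in Igf2bp3+/- and 5.12, 5.64 and 3.60 FPKM in Igf2bp3-/- RNC-seq. As for Dot1l, knockout replicates 1 and 2 lay above every control and replicate 3 within their range. The log2 change was 0.53 ± 0.27 (SE), with an adjusted p of 0.787 by limma, and it was 0.34 without control replicate 1. Mllt10 read 4.51, 5.78 and 4.90 FPKM against 10.8, 7.24 and 4.43 FPKM. Here knockout replicate 1 was the highest and replicate 3 the lowest of all 6 libraries. The log2 change of Mllt10 was 0.47 ± 0.31 (SE; adjusted p = 0.827, limma), but only 0.17 without knockout replicate 1 and 0.80 without knockout replicate 3.

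Mllt3 read 1.26, 1.10 and 1.34 FPKM in Igf2bp3+/- and 1.31, 1.88 and 1.26 FPKM in Igf2bp3-/- RNC-seq. Its groups overlapped, and the log2 change was 0.23 with an interval of -0.39 to 0.85. It was 0.058 without knockout replicate 2, the 1 library in which Mllt3 was high. Knockout replicate 3 held the lowest knockout level of each of the 4 genes. Of the members, 0 of 4 had RNC-seq groups that did not overlap, against 9.44% of all genes with the knockout higher and 1.85% with it lower.

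The position of each mRNA relative to the polysome fraction was then compared within each genotype. The log2 ratio of RNC-seq to RNA-seq is relative to the other genes of the libraries, so 0 is no absolute loading. In Igf2bp3+/- spermatids, Dot1l, Mllt1 and Mllt10 were lower on polysomes than in total RNA, 3 of the 4 members, against 25.2% of 18414 genes lower and 18.6% higher. The log2 ratio was -1.67 ± 0.25 for Mllt10 (SE; adjusted p = 0.00017, limma). For Dot1l it was -1.41 ± 0.26 (adjusted p = 0.000669, limma), and for Mllt1 -1.28 ± 0.20 (adjusted p = 0.000275, limma). Every RNC-seq library of these 3 genes lay below every RNA-seq library of the same genotype in Igf2bp3+/-. How many of all genes showed such a separation was not counted, so it is a description only. Mllt3 had a log2 ratio of -0.47 ± 0.24 (SE), which did not pass (adjusted p = 0.126, limma). It passed with equal sums without CT010467.1, at -0.68 (adjusted p = 0.0314, limma), and without Igf2bp3+/- RNA-seq replicate 3, at -0.69 (adjusted p = 0.0417, limma).

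In Igf2bp3-/- spermatids, 1 of the 4 members passed, against 14.0% of genes lower on polysomes and 12.5% higher. Mllt10 was again lower, with a log2 ratio of -1.22 ± 0.25 (SE; adjusted p = 0.00323, limma). Dot1l had a log2 ratio of -0.55 ± 0.26 (adjusted p = 0.128, limma) and Mllt1 one of -0.51 ± 0.20 (adjusted p = 0.0823, limma). Mllt3 stood at -0.37 ± 0.24 (adjusted p = 0.277, limma). Without Igf2bp3-/- RNC-seq replicate 2, 3 of the 4 members passed, where 3295 of 18304 genes were lower and 2932 higher. A pass in the controls and none in the knockout does not show that the genotypes differ, and the test of that difference is the change in TE.

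TE was set between genotypes in a single fit over the 12 libraries, as the interaction of genotype and assay. None of the 4 members passed the adjusted limit, which 0.00543% of 18414 genes passed. At an unadjusted p under 0.05, Dot1l and Mllt1 were higher in Igf2bp3-/-, 2 of 4 members, and 0 were lower, against 5.54% of all genes higher and 1.58% lower. The median change of the 4 members was 0.61 on the log2 scale, beside 0.064 for all genes.

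For Dot1l, same-numbered libraries gave TE values of 0.302, 0.436 and 0.396 in Igf2bp3+/- and 0.611, 0.967 and 0.534 in Igf2bp3-/-. All 3 knockout values lay above all 3 control values, though the labels do not tie the numbers between the assays. The share of all genes with such a separation in TE was not counted, so this is a description only. The log2 TE change was 0.86 ± 0.36 (SE), with an interval of 0.083 to 1.64, an unadjusted p of 0.0326 and an adjusted p of 0.686 by limma. A larger change was seen in 6.74% of the genes tested. An alternative fit paired same-numbered libraries and removed the trend over all genes against mean TE. That mean was taken over both genotypes, so it includes the change tested. After the trend was removed, the change of Dot1l was 0.50 ± 0.19 (SE; adjusted p = 0.726, limma).

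Mllt1 gave TE values of 0.321, 0.492 and 0.415 in Igf2bp3+/- and 0.728, 0.791 and 0.591 in Igf2bp3-/-. These did not overlap either, with the same limit that the share of all genes was not counted. Its log2 TE change was 0.77 ± 0.29 (SE), with an interval of 0.15 to 1.40, an unadjusted p of 0.0185 and an adjusted p of 0.686 by limma. It was 0.44 ± 0.22 (SE; adjusted p = 0.733, limma) after the trend was removed.

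The TE changes of Mllt10 and Mllt3 were smaller. Mllt10 gave TE values of 0.268, 0.332 and 0.334 in Igf2bp3+/- and 0.580, 0.465 and 0.285 in Igf2bp3-/-, where only replicate 3 of the knockout lay within the control range. The log2 TE change of Mllt10 was 0.45 with an interval of -0.31 to 1.20, was 0.14 without Igf2bp3-/- RNC-seq replicate 1 and 0.78 without replicate 3 (adjusted p = 0.219, limma), and was -0.059 after the trend was removed. Mllt3 gave 0.568, 0.586 and 1.07 in Igf2bp3+/- and 0.668, 1.09 and 0.614 in Igf2bp3-/-, with a single high value in each group. Its log2 TE change was 0.10 with an interval of -0.62 to 0.82, and its sign turned under each of 2 other scalings, with values of -0.028 and -0.027.

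**Figure D2:**
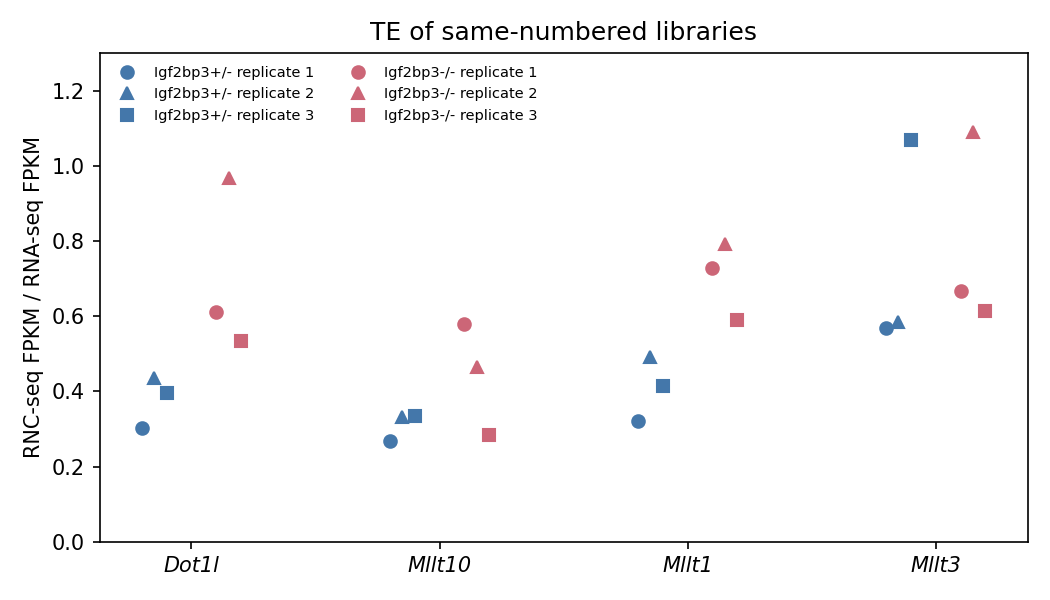
RNC-seq FPKM divided by RNA-seq FPKM of same-numbered libraries (vertical axis, no unit) for the 4 genes. Blue is Igf2bp3+/-, red is Igf2bp3-/-, and shapes give the replicate number. Dot1l runs from 0.302 to 0.436 in the controls and from 0.534 to 0.967 in the knockout, while Mllt3 overlaps.

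**Figure D3:**
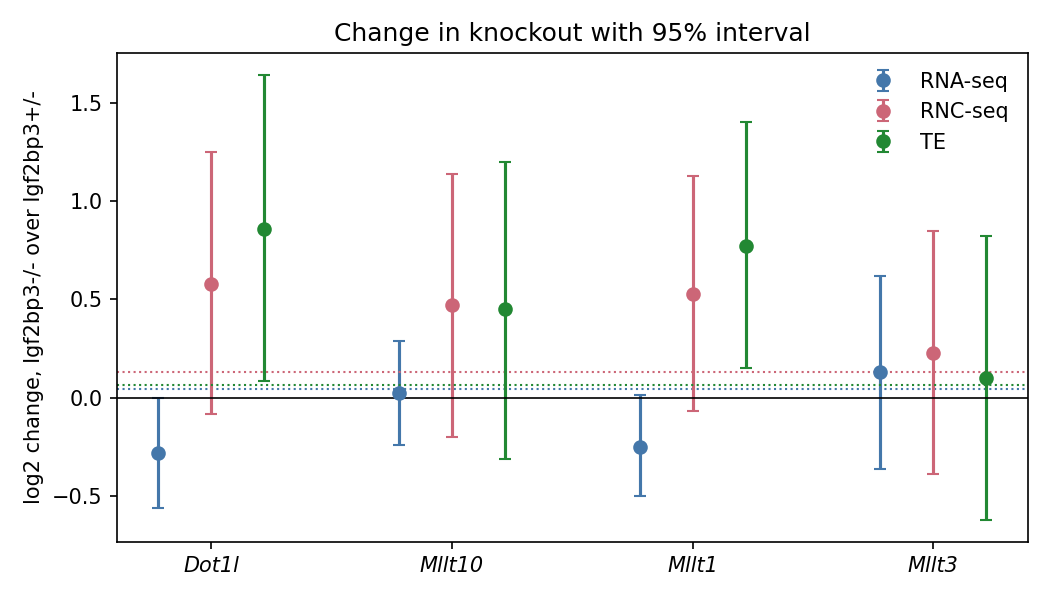
Log2 change of each gene, Igf2bp3-/- over Igf2bp3+/-, in RNA-seq, RNC-seq and TE, from limma. Points are estimates, bars are 95% intervals, and dotted lines are the median of all genes tested in each comparison. Intervals of the TE change exclude 0 for Dot1l and Mllt1 before adjustment, and no point passed the adjusted limit.

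By the ratio of mean RNC-seq to mean RNA-seq FPKM in each group, Dot1l went from 0.382 to 0.712, a 1.86-fold difference. Mllt1 went from 0.411 to 0.709, or 1.73-fold, Mllt10 from 0.311 to 0.451, or 1.45-fold, and Mllt3 from 0.691 to 0.775, or 1.12-fold. Past 1.5-fold higher were thus 2 of the 4 members and past 1.5-fold lower 0, against 20.0% and 9.27% of 19433 genes. A larger fold than that of Dot1l was found in 11% of those genes. This ratio carries no test. Without Igf2bp3-/- RNC-seq replicate 2 the Dot1l fold was 1.48 and 1 of the 4 members was past 1.5-fold. Without Igf2bp3-/- RNC-seq replicate 3 there were 3, with Mllt10 at 1.75-fold. The share of all genes past 1.5-fold was not counted without those libraries.

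**Figure D4:**
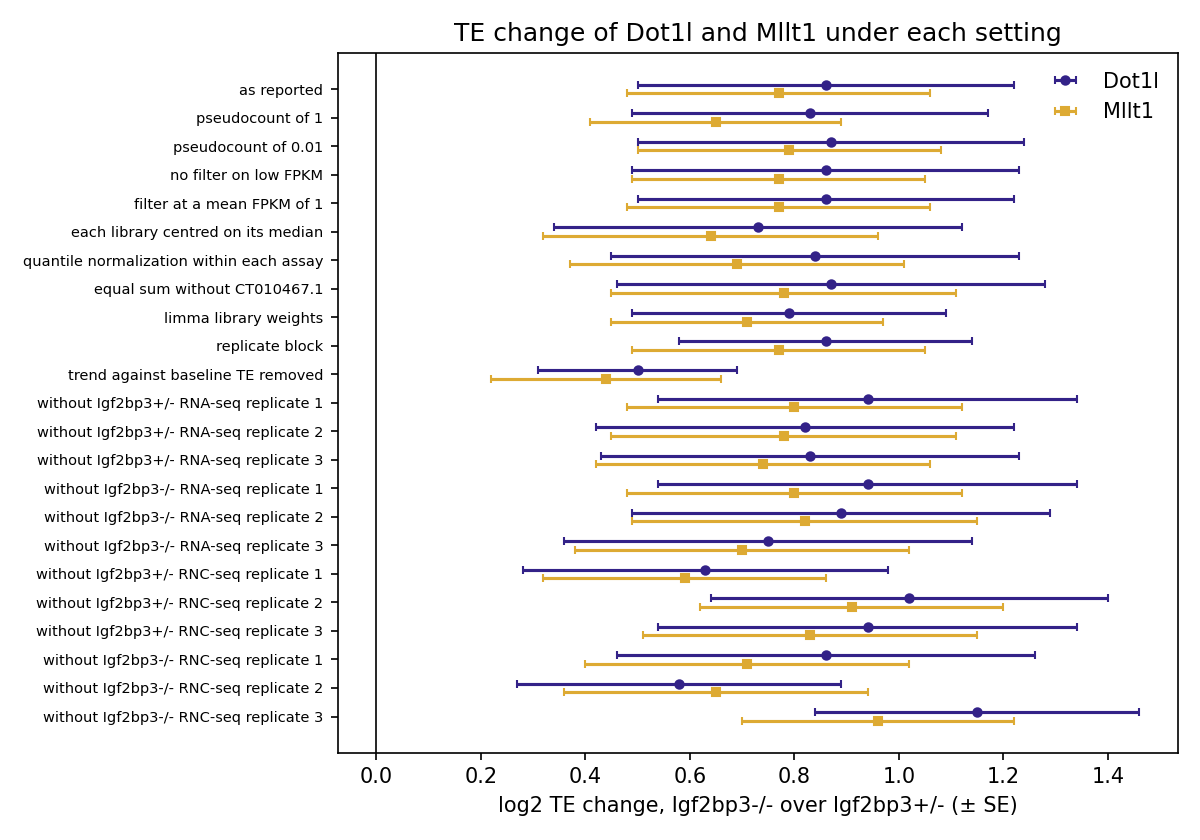
Log2 TE change of Dot1l (circles) and Mllt1 (squares), Igf2bp3-/- over Igf2bp3+/-, under the reported setting and 22 alternatives. Bars are SE. All estimates lie above 0, from 0.50 to 1.15 for Dot1l and from 0.44 to 0.96 for Mllt1. The lowest came after removal of the trend against mean TE of both genotypes, labelled baseline TE in the figure.

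The genes whose levels ran most like that of Dot1l were sought over the 12 libraries among 11389 genes with a mean of at least 1 FPKM in each assay. The measure was the correlation of log2 FPKM, and since the libraries share assay and genotype it is a description. Closest were Ncoa3 (Pearson r = 0.991, Spearman rho = 0.972), Gm16486 (0.990 and 0.965), Scaf1 (0.989 and 0.979), Vars (0.989 and 0.958) and Atg9a (0.989 and 0.979). Mllt1 ranked 10 in that list, with r of 0.984 and rho of 0.958. Mllt10 ranked 1121 with r of 0.885, and Mllt3 ranked 3174 with r of 0.660. Mllt1 was thus nearer to Dot1l than Mllt10 or Mllt3 in these libraries. The 5 closest genes had log2 TE changes from 0.80 for Vars to 1.27 for Scaf1, and the adjusted p of Scaf1 was 0.686 by limma. They were picked by likeness to Dot1l over these same libraries, so TE changes of the same sign follow from the choice.

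Genes that work around DOT1L were taken from 5 lists with 41 genes in all. They cover other proteins purified with DOT1L, the super elongation complex with P-TEFb, the PAF1 complex with the H2B ubiquitination on which DOT1L activity depends, the MLL and menin complex, and partners or relatives of AF9 and ENL. None passed the adjusted limit by limma in RNA-seq (39 tested), RNC-seq (37) or TE (37). At an unadjusted p under 0.05, 5 were higher and 2 lower in RNA-seq, 2 higher and 0 lower in RNC-seq, and 0 in TE. Among all genes the shares were 10.4% higher and 5.32% lower in RNA-seq, 5.36% and 1.12% in RNC-seq, and 5.54% and 1.58% in TE. Their median TE change was 0.27 on the log2 scale, beside 0.61 for Dot1l and its partners and 0.064 for all genes.

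The smallest p-values in RNA-seq belonged to Ube2a, Ube2b and Dpy30. Ube2a and Ube2b encode the E2 enzymes of H2B ubiquitination, and DPY30 is a core subunit of the MLL complexes. Ube2a had a log2 change of 0.51 ± 0.16 (SE; adjusted p = 0.212, limma), Ube2b one of 0.41 ± 0.14 (adjusted p = 0.239) and Dpy30 one of 0.41 ± 0.15 (adjusted p = 0.249). The 2 lower genes came from the same lists. Rnf20, listed with H2B ubiquitination, had a change of -0.55 ± 0.24 (SE; adjusted p = 0.312, limma). Psip1, listed with MLL and menin, had one of -0.26 ± 0.11 (adjusted p = 0.304, limma). In RNC-seq the 2 genes were Ube2a, at 0.84 ± 0.23 (SE; adjusted p = 0.592, limma), and Men1, which encodes menin, at 0.56 ± 0.25 (adjusted p = 0.767).

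Polysome loading of these lists was counted in the same way. In Igf2bp3+/-, 21 of 37 were lower on polysomes and 3 higher, and in Igf2bp3-/- 12 were lower and 3 higher. All genes gave 25.2% lower and 18.6% higher in the controls, and 14.0% lower and 12.5% higher in the knockout. The 3 higher in the controls were Wdr61, Ube2b and Dpy30, and the 3 higher in the knockout were Ube2a, Ube2b and Dpy30. Lower in both genotypes were Trrap, Aff4, Larp7, Ctr9, Leo1, Rtf1, Rnf20, Rnf40, Usp22, Psip1, Wdr5 and Yeats2. Among these, Usp22, Yeats2, Rnf20 and Trrap were near the floor, with Igf2bp3+/- RNC-seq means of 0.0595, 0.114, 0.16 and 0.254 FPKM. Past the limit in the controls and not in the knockout, without a TE difference past the limit, were Ctnnb1, Ell2, Ell3, Ccnt2, Paf1, Wac, Usp44, Kmt2b and Ash2l. Psip1, which encodes the chromatin reader LEDGF, had log2 ratios of -1.53 ± 0.19 in Igf2bp3+/- (SE; adjusted p = 5.05e-05, limma) and -1.48 ± 0.19 in Igf2bp3-/- (adjusted p = 0.00022, limma). Ctr9, a PAF1 complex scaffold, had ratios of -1.34 ± 0.17 and -1.19 ± 0.17. Ell3 is uncertain, since 68% of its longest transcript is shared with Serinc4. Its Igf2bp3+/- RNC-seq mean was also only 0.103 FPKM, with replicate 3 at 0. Ccnt2 and Kmt2b were low in that group as well, with means of 0.244 and 0.212 FPKM.

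**Figure D5:**
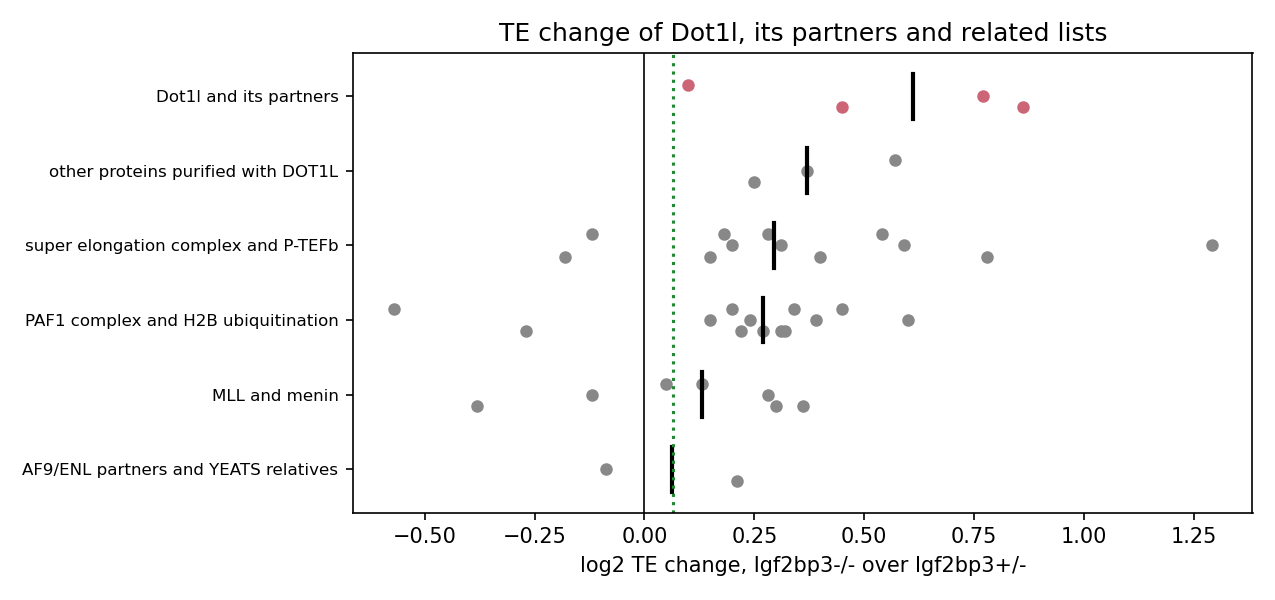
Log2 TE change of each tested gene, Igf2bp3-/- over Igf2bp3+/-, for Dot1l and its partners (red) and the 5 related lists (grey). Black bars are list medians and the green dotted line is the median of all genes. The 4 members have a median of 0.61, and the other lists range from 0.061 to 0.37.

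By the ratio of means, 8 of 39 genes on these lists were past 1.5-fold higher and 0 past 1.5-fold lower, a share near the 20.0% of all genes. The median fold was 1.24, against 1.59 for the 4 members and 1.06 for all genes. No difference between the members and these lists was tested.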

How the data were processed

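The authors deposited 1 table of FPKM per gene symbol and library. The submitters' processing notes name Trim Galore 0.6.6, HISAT2, StringTie 2.1.7 and GRCm38, which served, by the methods, for trimming, alignment and quantification. Read counts were not used here, so depth per library is unknown and no counting interval is given. Of 28668 symbols, 25 that look like dates were left out. Columns named WT are the Igf2bp3+/- libraries by the labels. Values were taken as log2(FPKM + 0.1), which understates changes of low genes, and tested two-sided with limma 3.58.1 (intensity trend, Benjamini-Hochberg adjustment over all genes, limit 0.05). Genes needed a mean above 0.1 FPKM in the assay, or in each assay for TE. RNA-seq and RNC-seq were fitted on 6 libraries each, and TE and polysome loading on all 12 with their interaction. The scripts were tested on simulated data.

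Every member was named in every comparison. Of the other lists, genes past the adjusted limit and up to 3 with the smallest unadjusted p were named, with the 5 genes most correlated with Dot1l. The 2 list genes lower in RNA-seq at an unadjusted p under 0.05 by limma were named as well. The members and lists were chosen with earlier results of these data known. By the study's methods, a portion of each spermatid extract was the RNA-seq input and the remainder went to RNC-seq, so the assays share extracts. The labels do not say that equal replicate numbers mark the same extract, so libraries were not paired in the reported fits. Alternatives covered the pseudocount, the filter, scaling, library weights, the block, the trend against mean TE (lowess, span 0.667) and leaving out each library. The trend used the mean TE over both genotypes. For TE and loading, the block fits paired same-numbered libraries, as did the trend fit for TE. Positions and the reporter's transcript match came from GENCODE M21 (GRCm38), and the reporter fragment from the study's supplementary sequences.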

Additional observations from a re-analysis of the deposited data

How the results depend on the processing

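No member passed the adjusted limit in RNA-seq, RNC-seq or TE under any alternative run, and the adjusted p of the Dot1l TE change ranged from 0.148 to 0.941. The unadjusted p of that change was under 0.05 in 14 of 22 alternatives for Dot1l and in 19 of 22 for Mllt1. Leaving out 1 library at a time gave Dot1l TE changes of 0.58 to 1.15. In RNA-seq the Mllt10 change turned negative under quantile normalization (-0.049), equal sums without CT010467.1 (-0.099) and library weights (-0.025), and ran from -0.063 to 0.071 without single libraries. The Mllt3 change in RNA-seq ran from -0.091 to 0.30 without single libraries. The Mllt3 TE change turned negative with each library centred on its median (-0.028), under quantile normalization (-0.027) and after the trend against baseline TE was removed (-0.078), and ran from -0.072 to 0.32 without single libraries. The Mllt10 TE change was -0.059 after that trend was removed. The Mllt3 ratio of means ran from 0.969-fold to 1.29-fold without single libraries, and the number of members past 1.5-fold from 1 to 3. In Igf2bp3-/- polysome loading, 2 members passed with equal sums without CT010467.1 and 2 with library weights, and 1 to 3 passed without single libraries. In Igf2bp3+/- loading, 4 passed with equal sums without CT010467.1 and 3 to 4 without single libraries. The calls over all genes moved too. With equal sums without CT010467.1, 6114 of 18346 genes were lower in Igf2bp3+/- loading, against 4639 of 18414 as reported. In Igf2bp3-/- loading 4137 of 18346 were lower, against 2583 of 18414, and with library weights 2704. Without single libraries the lower genes ran from 3797 to 4861 in Igf2bp3+/- and from 1688 to 3295 in Igf2bp3-/-. The cause of these moves was not tested.

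With the replicate number as a block, the Dot1l TE change was 0.86 ± 0.28 (SE; unadjusted p = 0.00828, against 0.0326 without the block, and adjusted p = 0.479, limma) and the number of members past the limit did not move in any comparison. Across assays, libraries of the same genotype and number had deviations that correlated from -0.105 to 0.262. For different numbers the correlations ran from -0.367 to 0.214. The ranges overlap and do not settle whether equal numbers mark the same extract. The numbers were not used to pair the reported fits, although the assays share extracts. The genes past the limit numbered 4 with the block against 52 without it in RNA-seq, and 0 against 1 in TE. Over all alternatives they ranged from 4 to 84 in RNA-seq, 0 to 48 in RNC-seq, 0 to 2 in TE, 6222 to 8963 for Igf2bp3+/- loading and 3089 to 6227 for Igf2bp3-/- loading. With 3 libraries a group, the intervals of the TE changes were wide, and depth was unknown.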
